A study of Mus musculus with 6 samples.

Results

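Peroxins are the proteins that build peroxisomes, and their genes were compared here between mouse livers injected with an adenoviral vector for the transcription factor TFEB and livers that were not injected. They were taken as all genes whose symbol is Pex, a number and at most 1 letter, and 11 such genes had a probe set annotated with 1 symbol, among 12393 genes. They were covered by 21 of 20380 probe sets. Pex6 and Pex26 came in through the symbol alone, while the other 9 had also been picked by name with results of these data known. Peroxins with no such probe set were not analysed here. Pex5l carries a similar symbol but encodes a relative of the import receptor known from ion channel traffic in mouse brain, so it was not counted. All 6 livers came from wild type mice of the C57 background at 1 month of age. The TFEB-injected group holds 3 livers that had received the vector, and the not-injected group 3 livers that had received nothing. The difference of Tfeb between them did not pass (0.05 ± 0.10, limma adjusted p = 0.716), and its probes need not bind the transgene. No liver given an empty vector is named, so injection, vector and TFEB cannot be told apart. Each liver was measured on 1 Affymetrix array, and the values are expression on the log2 scale.

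Peroxisomes are organelles bounded by a single membrane that break down very long and branched fatty acids, make ether lipids, finish bile acids and handle hydrogen peroxide, and hepatocytes are rich in them. Membrane peroxins (Pex3, Pex16 and Pex19) bring proteins into the membrane, and receptors (Pex5 and Pex7) carry folded enzymes from the cytosol to a docking complex (Pex13 and Pex14). A ubiquitin ligase that contains Pex2 then marks the receptor, and an ATPase that contains Pex6, anchored by Pex26, pulls it out for another round. Proteins of the Pex11 family elongate the membrane before it divides, and the Pex11a gene is a classical target of PPAR-alpha agonists in rodents.

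Promoters are shown for the genes that were called lower and have an entry (Pex16, Pex5 and Pex6), for Pex13, whose probe sets disagreed, and for Pex11a, the proliferation gene. Each is the 250 bases before the most upstream start site in RefSeq's GRCm38.p6 table, written on the strand of the gene, and capitals mark any motif that was found.
Pex16, chr2:92374426-92374675, plus strand: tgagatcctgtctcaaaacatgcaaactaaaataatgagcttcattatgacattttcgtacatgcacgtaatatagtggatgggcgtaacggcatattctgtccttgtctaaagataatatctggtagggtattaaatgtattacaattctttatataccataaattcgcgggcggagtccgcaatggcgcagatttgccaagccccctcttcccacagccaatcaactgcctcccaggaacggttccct
Pex5, chr6:124415856-124416105, minus strand: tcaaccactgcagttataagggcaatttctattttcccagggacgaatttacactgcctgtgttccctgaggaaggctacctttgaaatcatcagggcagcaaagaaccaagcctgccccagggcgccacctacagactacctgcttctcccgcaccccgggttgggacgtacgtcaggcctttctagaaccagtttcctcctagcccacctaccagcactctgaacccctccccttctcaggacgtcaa
Pex6, chr17:46711226-46711475, plus strand: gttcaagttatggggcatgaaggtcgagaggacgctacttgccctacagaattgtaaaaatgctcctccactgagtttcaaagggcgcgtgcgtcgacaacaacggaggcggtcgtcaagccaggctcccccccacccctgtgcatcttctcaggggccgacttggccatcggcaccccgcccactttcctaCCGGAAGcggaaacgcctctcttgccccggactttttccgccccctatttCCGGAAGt
Pex13, chr11:23665884-23666133, minus strand: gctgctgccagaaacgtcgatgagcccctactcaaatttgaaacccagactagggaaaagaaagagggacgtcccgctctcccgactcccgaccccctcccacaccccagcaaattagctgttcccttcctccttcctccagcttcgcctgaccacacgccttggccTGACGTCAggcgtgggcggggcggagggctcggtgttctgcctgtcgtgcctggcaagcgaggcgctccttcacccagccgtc
Pex11a, chr7:79743132-79743381, minus strand: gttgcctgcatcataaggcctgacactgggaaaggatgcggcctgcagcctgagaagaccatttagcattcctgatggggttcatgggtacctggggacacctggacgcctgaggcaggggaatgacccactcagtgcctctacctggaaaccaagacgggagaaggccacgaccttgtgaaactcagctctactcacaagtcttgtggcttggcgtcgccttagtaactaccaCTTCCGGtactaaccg
Of the 11 genes 9 matched this table, with 12 start sites, and Pex2 and Pex19 did not. The E-box CACGTG, the core of the sites that TFEB binds in lysosomal genes, was in 0 of the 12 windows and in 6.02% of all 32851 windows of the same length. The PPAR repeat AGGTCANAGGTCA, searched on both strands as were all motifs, was in 0 of the 12 and in 0.0335% of all windows. Both results say only that these letters are not in these windows. A further pair of motifs was chosen after the sequences had been seen. The cAMP response element TGACGTCA was in the Pex13 window, beginning 83 bases before the start, and in 1.55% of all windows. The ETS core CCGGAAG, or its reverse complement, was in the windows of Pex6, Pex11a and Pex26 and in 6.91% of all windows. Pex6 held it at 2 places, 58 and 8 bases before the start. No motif overlapped another.

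Of the 11 peroxins 4 were called lower in TFEB-injected livers and none was called higher. Pex16, Pex2, Pex6 and Pex5 fell by 0.25 to 0.41 on the log2 scale, while the differences of the other 7 did not pass (limma, two-sided, adjusted p under 0.05 over 12393 genes). The 4 genes that fell are 36.4% of the peroxins, and 13.9% of all genes were called lower. In a fit of only the 6197 genes at or above the median level, 4 of 11 peroxins were again called lower, against 21.3%. With array weights the count was 4 as well, against 19.7% of all genes. Without TFEB-injected replicate 1 the count was 1 of 11, against 7.99% of all genes, and with the replicate number as a block it was 2 of 11, against 13.1%. Among the 9 peroxins picked by name 3 fell. Because the peroxins were chosen with results of these data known, the share itself was not tested. The median difference of the 11 peroxins was -0.05, and that of all genes was also -0.05. With an array left out the peroxin median ran from -0.13 (without TFEB-injected replicate 2) to -0.03 (without TFEB-injected replicate 1). After a further quantile normalisation it was -0.09, and that of all genes was -0.05. In bulk liver, fewer cells of a type and less RNA per cell cannot be told apart.

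Every array was compared with the mean of the not-injected livers gene by gene. The median peroxin lay at -0.14, -0.08 and -0.14 in TFEB-injected replicates 1, 2 and 3, against 0.01, 0.01 and -0.04 in the not-injected livers. Below that mean lay 8, 8 and 6 of the 11 peroxins in the TFEB-injected livers, against 4, 4 and 7 in the not-injected livers. The not-injected livers form that mean themselves, so their values lie around it by construction, unlike those of the TFEB-injected livers. The values of the groups are therefore not a like comparison. No TFEB-injected liver had all peroxins below that mean, and the low values sat in some of the genes.

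**Figure D1:**
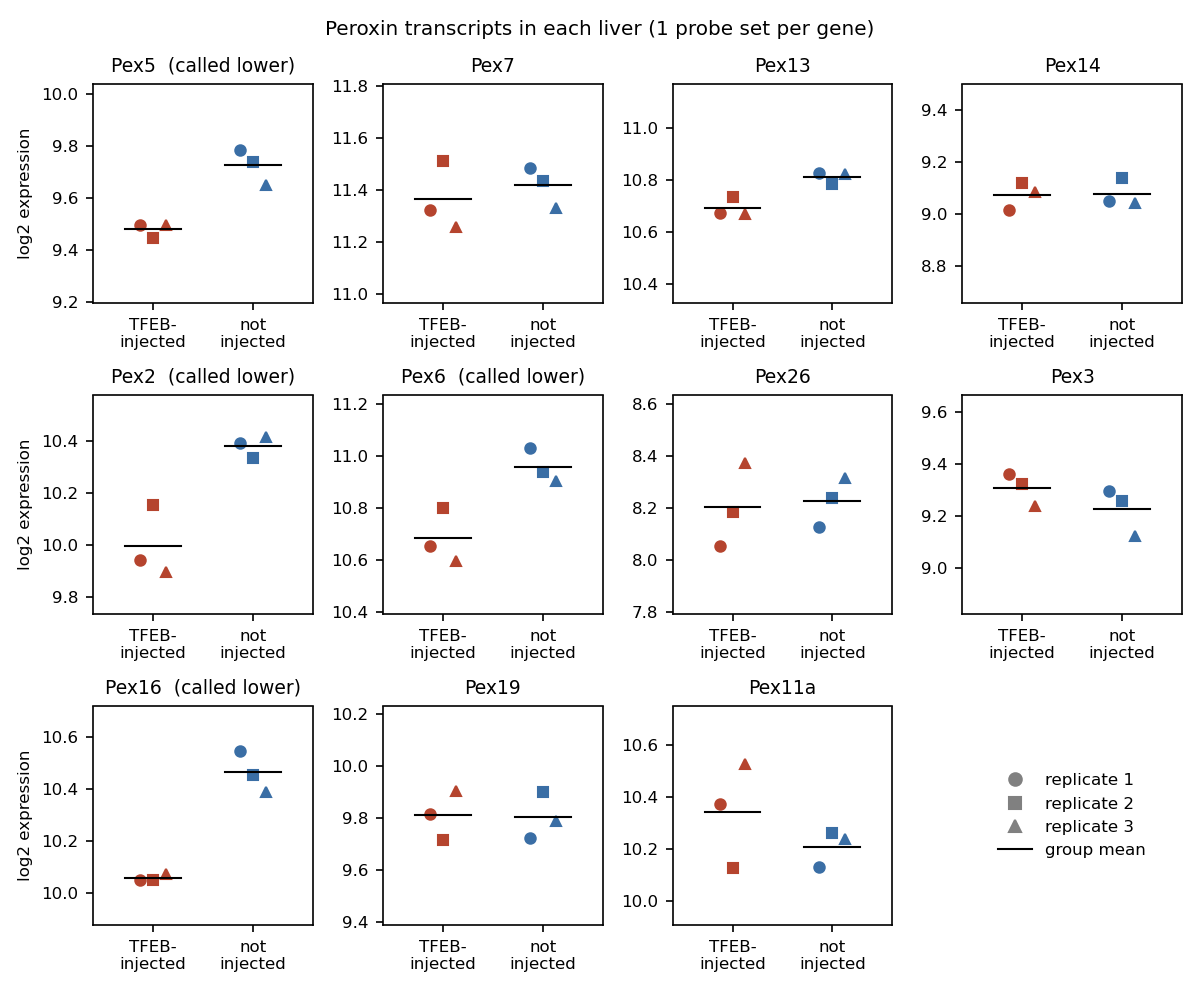
Log2 expression of the 11 peroxins (1 panel each) in every liver, with TFEB-injected livers on the left of each panel, symbols for replicates and lines for group means. The panels differ in level but all span the same log2 range, and the groups are apart in Pex5, Pex13, Pex2, Pex6 and Pex16.

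Among the receptors, Pex5 binds the C-terminal signal of most peroxisomal enzymes. It read 9.50, 9.45 and 9.50 in TFEB-injected livers, against 9.79, 9.74 and 9.65 in not-injected livers. The groups did not overlap, and the difference was -0.25 ± 0.06 (SE, n = 3 per group, limma adjusted p = 0.028). A separate probe set of Pex5 with a lower signal read 7.35, 7.50 and 7.45, against 7.70, 7.61 and 7.56 in not-injected livers. Its difference of -0.19 ± 0.07 had the same direction but did not pass among all probe sets (adjusted p = 0.0978). The call of Pex5 was also lost with the replicate number as a block (adjusted p = 0.0514) and without TFEB-injected replicate 1 (0.0717), TFEB-injected replicate 3 (0.0676), not-injected replicate 1 (0.0789) or not-injected replicate 2 (0.0902). Pex7, the receptor for the less common N-terminal signal, read 11.32, 11.51 and 11.26 in TFEB-injected livers, against 11.49, 11.44 and 11.33 in not-injected livers. These ranges overlapped, and the 95% interval of the difference was -0.25 to 0.15.

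The docking complex gave a mixed picture. Pex14, to which loaded Pex5 binds, read 9.02, 9.12 and 9.08 in TFEB-injected livers, against 9.05, 9.14 and 9.04 in not-injected livers. The groups overlapped fully, with a difference of -0.0043 and a 95% interval of -0.16 to 0.15. For its partner Pex13 there were 2 probe sets, annotated to the same sequence accession, and they differed in size. The brighter one read 10.68, 10.74 and 10.67 in TFEB-injected livers, against 10.83, 10.79 and 10.82 in not-injected livers. These groups did not overlap, yet the difference of -0.12 ± 0.06 did not pass (limma adjusted p = 0.176). The dimmer one read 6.18, 6.20 and 6.19 in TFEB-injected livers, against 6.82, 6.76 and 6.81 in not-injected livers. Here the drop was the largest of all peroxin probe sets, with a difference of -0.61 ± 0.06 (limma adjusted p = 0.000664 over 20380 probe sets). It passed in every alternative in which it was fitted, and with the mean of both probe sets Pex13 passed too (-0.36, adjusted p = 0.00338). Which transcript each of them binds was not tested.

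In the machinery that recycles Pex5, Pex2 and Pex6 fell and Pex26 did not pass. Pex2, a RING-type subunit of the ubiquitin ligase, read 9.94, 10.15 and 9.89 in TFEB-injected livers, against 10.39, 10.33 and 10.41 in not-injected livers. All TFEB-injected livers were below all others, replicate 2 by the smallest margin, and the difference was -0.38 ± 0.08 (limma adjusted p = 0.0141), a 1.30-fold fall. The call was lost without variance moderation (adjusted p = 0.058), without TFEB-injected replicate 1 (0.0524) and without not-injected replicate 3 (0.0561).

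Pex6, an AAA-type ATPase that extracts Pex5 from the membrane, was covered by 5 probe sets. The brightest read 10.65, 10.80 and 10.60 in TFEB-injected livers, against 11.03, 10.94 and 10.90 in not-injected livers. Its groups did not overlap, with a difference of -0.27 ± 0.08 (limma adjusted p = 0.0361). The suffix of its name marks, by Affymetrix's convention, a set with probes that can also bind other transcripts, and their part in the signal was not tested. Of the other 4 sets, 3 differed by -0.22 to -0.13 with separate groups, one by 0.04 with overlapping groups, and none passed (adjusted p of 0.0516 or more). With the mean of all its probe sets Pex6 read -0.16 and did not pass (adjusted p = 0.0942). It kept its call in 6 of 14 alternatives and lost it with the replicate number as a block (adjusted p = 0.0503), without variance moderation (0.0812) and without any single array other than TFEB-injected replicate 2 (adjusted p 0.075 to 0.11). Pex26, which tethers this ATPase to the membrane, read 8.05, 8.18 and 8.37 in TFEB-injected livers, against 8.12, 8.24 and 8.31 in not-injected livers. The ranges overlapped, and the 95% interval of the difference ran from -0.25 to 0.20.

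**Figure D2:**
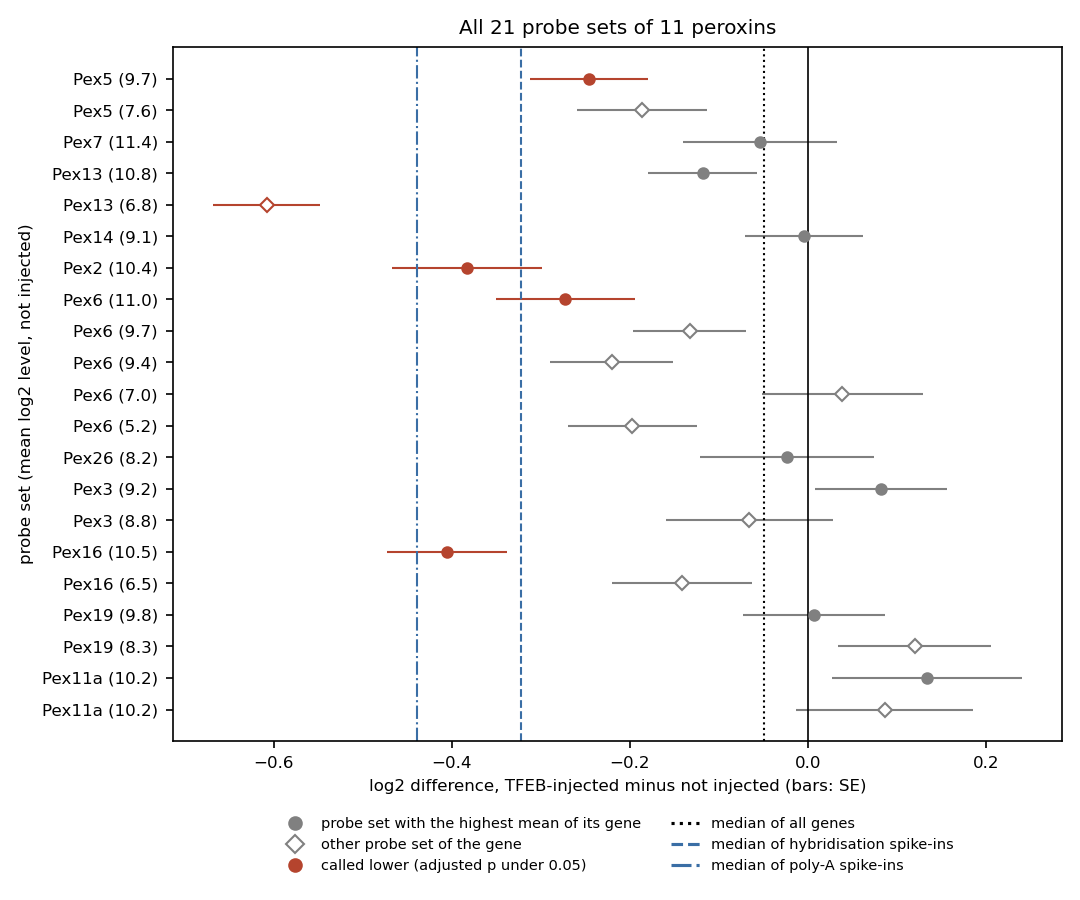
Log2 differences (TFEB-injected minus not-injected livers, bars are SE) of the 21 peroxin probe sets, ordered by role, with the mean log2 level of not-injected livers in brackets. Of the 21, 5 were called lower and 0 higher, and vertical lines mark the medians of all genes (-0.05), hybridisation spike-ins (-0.32) and poly-A spike-ins (-0.44).

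In the membrane group, Pex16 had the smallest p of the peroxins in the gene fit, where each gene stands for its brightest probe set, while in the fit of all probe sets the dimmer Pex13 set had a smaller one. This protein helps to recruit Pex3 and to insert membrane proteins into new peroxisomes. It read 10.05, 10.05 and 10.07 in TFEB-injected livers, against 10.55, 10.45 and 10.39 in not-injected livers. The TFEB-injected values lay close together and below every other, with a difference of -0.41 ± 0.07 (limma adjusted p = 0.00462), a 1.32-fold fall. Pex16 was the only peroxin called in all 14 alternatives, with adjusted p-values of 0.00247 to 0.0224. A dimmer Pex16 probe set read 6.42, 6.38 and 6.18 in TFEB-injected livers, against 6.48, 6.47 and 6.46 in not-injected livers. Its difference of -0.14 ± 0.08 had the same sign and did not pass (adjusted p = 0.222), and the mean of both sets gave -0.27.

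Pex3, the membrane anchor for Pex19, read 9.36, 9.32 and 9.24 in TFEB-injected livers, against 9.30, 9.26 and 9.12 in not-injected livers. The groups overlapped, the difference was 0.08 with a 95% interval of -0.09 to 0.25, and a dimmer probe set gave -0.07. Pex19, the cytosolic chaperone of membrane proteins, read 9.81, 9.71 and 9.90 in TFEB-injected livers, against 9.72, 9.90 and 9.79 in not-injected livers. Its difference was 0.01 with a 95% interval of -0.18 to 0.19, and that of a dimmer probe set was 0.12 ± 0.09, with overlapping groups in both. The sign for Pex19 turned after a further quantile normalisation (-0.04) and after centring (-0.01), so it has no settled direction. Pex16 thus passed and its partners did not, and whether the genes differ from each other was not tested.

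Pex11a had the highest difference of the 11 peroxins. It read 10.37, 10.13 and 10.53 in TFEB-injected livers, against 10.13, 10.26 and 10.24 in not-injected livers. TFEB-injected replicate 2 lay just below the lowest not-injected value and the other 2 TFEB-injected livers lay above all not-injected ones. Replicate 2 also stood apart over all genes: it was the TFEB-injected array nearest to the not-injected mean in 62.7% of the 3486 called genes, and array weights gave it the lowest weight of the 6 arrays (0.396). The difference of 0.13 ± 0.11 did not pass (limma adjusted p = 0.383), and its 95% interval of -0.12 to 0.38 allows a rise as well as a small fall. Without TFEB-injected replicate 2 it was 0.24 (limma adjusted p = 0.0551), and without TFEB-injected replicate 3 it was 0.04 (adjusted p = 0.803). These were its highest and lowest values over the 14 alternatives, and it passed in 0 of them. A separate probe set gave 0.09 ± 0.10. The coactivator gene Ppargc1a, known to promote fatty acid oxidation genes with PPAR-alpha, read 10.32, 10.14 and 10.05 in the same TFEB-injected livers, against 8.15, 7.61 and 8.04 in not-injected livers, a difference of 2.24 ± 0.15 (limma adjusted p = 0.000122). Ppara itself differed by 0.03 ± 0.07 and did not pass.

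**Figure D3:**
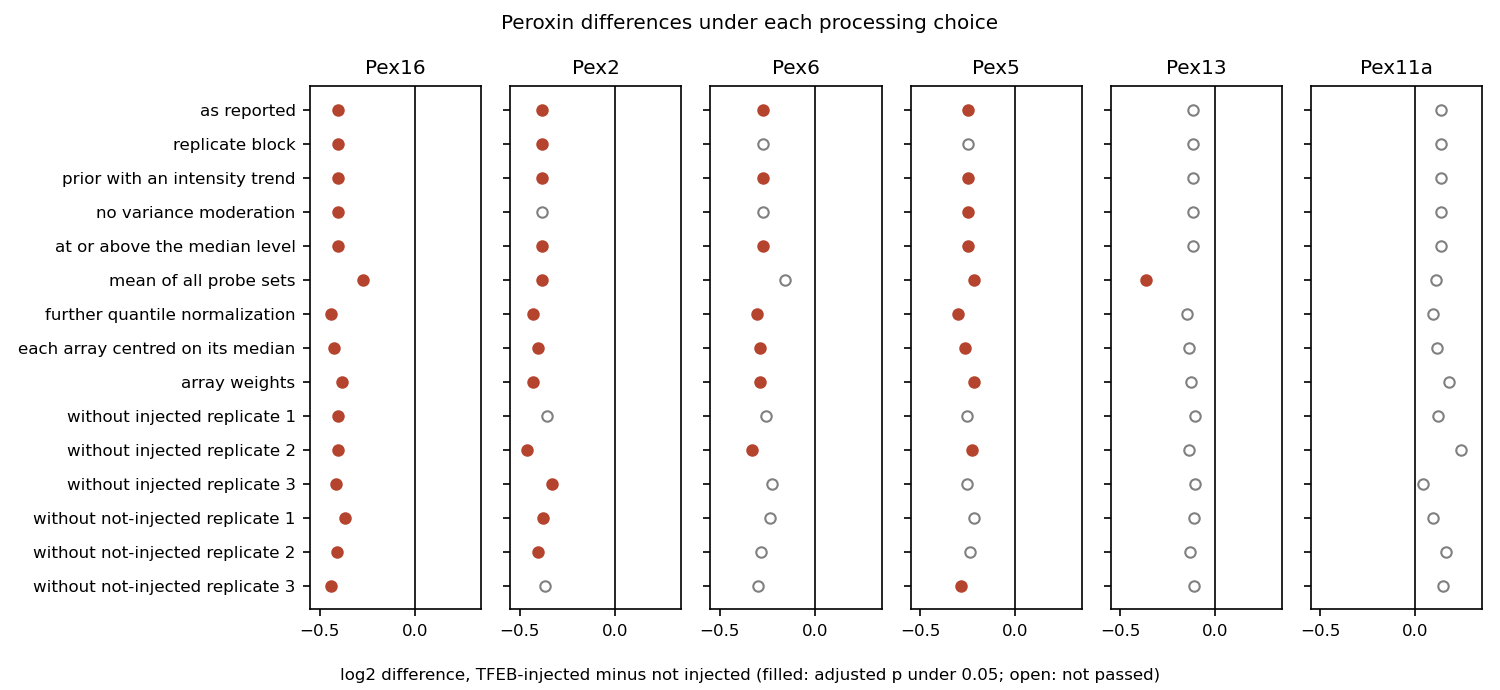
Log2 differences (TFEB-injected minus not-injected livers) of 6 peroxins as reported and under 14 other settings, 1 row each, with filled points where the adjusted p was under 0.05. Pex16 is filled in all rows, Pex13 only with the mean of its probe sets, and Pex11a in none.

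Counted over probe sets, 5 of the 21 were called lower and 0 higher, while 13.1% of all probe sets were called lower. In 11 of the 21 all TFEB-injected livers were below all not-injected livers, and this held for 25.9% of all probe sets. At the gene level it held for 5 of the 11 peroxins, against 26.1% of all genes, and the reverse order held for none. Pex5l, not a member, read 4.90 to 4.93 in TFEB-injected livers, against 5.10 to 5.19 in not-injected livers. These values are below each array's lower quartile, the lowest of which was 5.46. Even so Pex5l was called lower among all probe sets (-0.24 ± 0.06, limma adjusted p = 0.0273).

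The differences of the called peroxins lay within the range of the hybridisation control probe sets. Pex16 and Pex2 also lay within the range of the poly-A controls, while Pex5 (-0.25) and Pex6 (-0.27) fell less than any of those. Spike-ins are RNAs added during labelling and hybridisation. For hybridisation controls the differences, TFEB-injected minus not-injected, ran from -0.49 to -0.06 over 18 probe sets with a median of -0.32. For poly-A controls they ran from -0.57 to -0.30 over 24 probe sets with a median of -0.44. The part of labelling or hybridisation in the peroxin falls was not tested, and the labels name no batch. Hepatocyte markers such as Alb and Ttr were abundant in all livers, and the mean log2 level of 5 of them was 14.59 to 14.64 in TFEB-injected livers, against 14.61 to 14.63 in not-injected livers. Of these 5, Apob was called higher (0.29, limma adjusted p = 0.0246) and none lower, with Cps1 at -0.22 and Apoa1 at -0.10. In Cps1 and Apoa1 all TFEB-injected livers were below all not-injected livers, and in Apob and Ttr all were above. The mean of 5 sinusoidal endothelial markers was 8.61 to 8.77 in TFEB-injected livers, against 7.97 to 8.01 in not-injected livers. Of the 5, 3 were called higher (14.2% of all genes were), namely Lyve1 (2.10), Stab2 (0.96) and Pecam1 (0.41). Kdr (0.22) and Eng (-0.18) did not pass, and in Eng all TFEB-injected livers were below all not-injected livers. The part of these marker differences in the peroxin falls was not tested. The other markers are set against 14.2% of all genes called higher and 13.9% lower. Of 6 Kupffer cell genes 1 was called higher and 1 lower, of 5 stellate cell genes 1 lower, and of 4 cholangiocyte genes 0 either way. Of 3 genes listed for lymphocytes 1 was called higher, Ptprc (0.71), which is not restricted to lymphocytes. Cd3e (-0.20) and Cd79a (-0.09) did not pass.

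The other peroxisome genes were described from lists set by role, and over all genes 13.9% fell and 14.2% rose. Of 31 matrix enzymes with the C-terminal signal that Pex5 recognises, 9 fell, 3 rose and 19 did not pass, with a median of -0.14. Acox2, the oxidase of branched bile acid precursors, read 11.12, 10.94 and 11.02 in TFEB-injected livers, against 11.70, 11.80 and 11.75 in not-injected livers (-0.72 ± 0.07, limma adjusted p = 0.000686). Hacl1, a lyase of alpha-oxidation, differed by -0.998 ± 0.13, and the glycolate oxidase gene Hao1 by -0.94 ± 0.13. Mlycd, malonyl-CoA decarboxylase, differed by 0.37 ± 0.07, the oxidase gene Acox3 by 0.44 ± 0.09 and the hydrolase gene Nudt19 by 0.23 ± 0.07, a call lost in 9 of 14 alternatives. Acox3 averaged 5.65 in TFEB-injected livers and 5.21 in not-injected livers, about the lower quartile of the arrays, which leaves its size inexact, and its call was lost without variance moderation (adjusted p = 0.0593) and without not-injected replicate 2 (0.0506). Catalase, encoded by Cat and the best known peroxisomal enzyme, averaged 13.93 ± 0.06 in TFEB-injected livers and 14.05 ± 0.02 in not-injected livers (SD, n = 3 each), and its difference of -0.11 did not pass (adjusted p = 0.213). Of 3 measured enzymes that use the Pex7 route, the phytanoyl-CoA hydroxylase gene Phyh fell by 0.36, the thiolase gene Acaa1a rose by 0.42, and Acaa1b did not pass. The mean of both Acaa1a probe sets gave 0.28, and without variance moderation its call was lost (adjusted p = 0.0504).

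Of 8 membrane proteins and transporters, 3 fell, 0 rose and 5 did not pass, with a median of -0.19. Abcd3, which encodes the abundant ABC transporter PMP70, read 12.80, 12.92 and 12.97 in TFEB-injected livers, against 13.35, 13.43 and 13.42 in not-injected livers (-0.50 ± 0.07, limma adjusted p = 0.00246). The cofactor carrier gene Slc25a17 differed by -0.60 ± 0.08 and Pxmp4 by -0.54 ± 0.11. The mean of both Slc25a17 probe sets, of which 1 was called, gave -0.39, and Pxmp4 lost its call without variance moderation (adjusted p = 0.0601). Among 4 fission factors that peroxisomes share with mitochondria, Mff, the adaptor that recruits dynamin-related protein, rose by 0.58 ± 0.07, and Dnm1l, Fis1 and Gdap1 did not pass. Of 8 genes for Pex5 ubiquitination and pexophagy 3 rose, 0 fell and 5 did not pass, with a median of 0.23. These were the ubiquitin-conjugating enzyme gene Ube2d1 (0.60 ± 0.10), Zfand6 (0.31 ± 0.06), whose product aids Pex5 export, and Nbr1 (0.32 ± 0.09), a receptor for peroxisome autophagy whose call was lost in 7 of 14 alternatives, among them the mean of its probe sets (0.21). Ube2d1 read 5.51 on average in TFEB-injected livers and 4.91 in not-injected livers, near or below the lower quartile, so its size is inexact. Of 7 regulators 2 rose, Ppargc1a and Pparg (1.42 ± 0.11), and 1 fell, the PPAR partner Rxra (-0.32 ± 0.07). Called genes in either direction made up 28.1% of all genes.

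**Figure D4:**
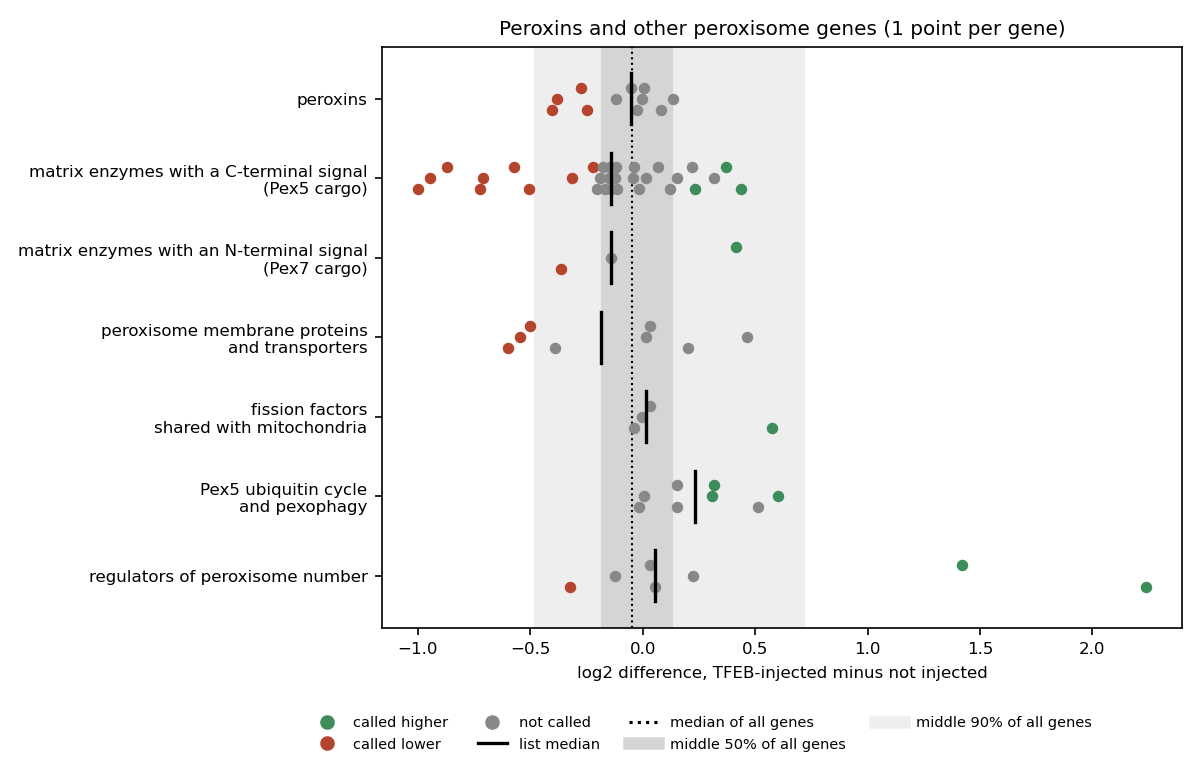
Log2 differences (TFEB-injected minus not-injected livers) of the 11 peroxins and the genes of 6 other peroxisome lists, 1 point per gene, coloured by call. Black bars are list medians, and grey bands hold the middle 50% (-0.18 to 0.13) and 90% (-0.48 to 0.72) of all genes.

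The genes with the pattern nearest to that of Pex16 over the 6 arrays were Vtn, Kif17, Znrd2, Wrap73 and Crlf2. Nearness was the root mean square distance between log2 values after subtracting the mean of each gene, which was 0.03 to 0.04. Their differences were -0.43 to -0.39. The genes were picked by these same values, so differences near that of Pex16 follow from the choice. In the mean of all probe sets Vtn was at -0.54, Kif17 at -0.35 and Znrd2 at -0.24. None of them is a peroxin, and peroxins are only 11 of the 12393 genes.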

How the data were processed

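Total RNA of 6 livers was labelled as biotinylated cRNA for Affymetrix arrays, per the labels' protocols. The authors deposited log2 values per probe set, and the submitters' processing notes name the R package affy and RMA, without versions. RMA equalises the arrays, which hides any shift common to all transcripts and compresses low values. Detection calls were not used here.

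The members and lists were chosen with earlier results of these data known. Of 22690 probe sets, 64 controls, 691 with several symbols and 1555 with none were left out. Each gene was represented by the probe set with its highest mean. Identifiers of 12369 of 12393 genes matched RefSeq (GRCm38.p6). limma 3.58.1 (R 4.3.3, lmFit and eBayes, no covariate, no filter) tested genes, and separately all 20380 probe sets, two-sided with Benjamini-Hochberg adjustment. Replicates are called biological in the labels. The rule for named genes took all peroxins, up to 3 called genes with the smallest p per list and direction, Tfeb, Ppara, Ppargc1a, Cat and Abcd3, and the 5 genes nearest to the peroxin with the smallest p. In simulated data with 12393 genes and 3 arrays per group, 76% of genes changed by 0.5 were called. Far fewer genes were changed there than were called in the data. Smaller changes, such as those of the called peroxins, were not simulated. Python 3.11.15 was used for tables and plots. The number of arrays limits the precision.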

Additional observations from a re-analysis of the deposited data

How the results depend on the processing

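Under 14 alternatives the 11 peroxin differences gave 154 values, of which 128 kept sign and side of the threshold, 16 lost a call, 1 gained one and 9 turned sign without passing. The count of peroxins called higher was 0 throughout. The count called lower was 4 as reported, 2 with the replicate number as a block (replicate block, 13.1% of all genes) and 2 without variance moderation (7.76%). It was 5 with every probe set fitted, where a gene counted if any of its probe sets was called. The share of all genes by that rule was not computed, so this 5 has no background beside it. With an array left out the count was 1 to 4, with 4 without TFEB-injected replicate 2 (17.99% of all genes). It was 1 without TFEB-injected replicate 1, against 7.99% of all genes. It was 2 without TFEB-injected replicate 3 (8.7% of all genes) and 2 without not-injected replicate 1 (10.5%), replicate 2 (7.56%) or replicate 3 (7.55%). The labels do not say that replicate numbers pair mice, so the numbers were not taken as pairs. Deviations of same-numbered arrays correlated at 0.14, 0.06 and 0.01 across genes, and those of arrays with unlike numbers at -0.16 to 0.08. With so few arrays per group these values cannot tell whether the numbers are pairs. With the block 3348 genes were called, against 3486. Without moderation 1881 genes were called in all, and leaving out an array gave 1973 to 4378, with 2103 without TFEB-injected replicate 1, 1973 without not-injected replicate 2 and 2032 without not-injected replicate 3.

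Of the lists, called genes numbered 1 without moderation for Pex7 cargo (2 as reported) and 5 with array weights for membrane proteins (3 as reported). Of all 12393 genes, 1881 were called without moderation and 4707 with array weights, against 3486 as reported. With an array left out the counts were 8 to 14 for Pex5 cargo and 2 for Pex7 cargo. For membrane proteins they were 3 to 5 (5 without TFEB-injected replicate 2). They were 1 for fission factors, 2 to 4 for ubiquitination and pexophagy, and 3 for regulators. In the same fits 1973 to 4378 of all genes were called (4378 without TFEB-injected replicate 2), so the count of all genes moved as well. Signs turned, with none passing, for Pex19 after quantile normalisation (-0.0443) and after centring (-0.0119) and for Ppara after quantile normalisation (-0.0036). With an array left out, differences of both signs arose for Pex19 (-0.0395 to 0.0551), Pex14 (-0.0268 to 0.0265), Pex26 (-0.1076 to 0.0514), Ppara (-0.0129 to 0.0782) and Tfeb (-0.0511 to 0.1115). The same held for the dimmer Pex3 probe set (-0.1245 to 0.0163) and for 1 of Pex6 (-0.0446 to 0.1048, and -0.0214 with array weights). The causes were not tested, except that leaving out an array leaves fewer samples.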
